A study of Homo sapiens with 9 samples.

Results

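Centrosome and centriole genes were followed over 3 groups of HT1080 cells, an established human fibrosarcoma line. The set was a list of 40 genes for centriole assembly, centriole length, appendages, the linker between centrioles, the pericentriolar material, augmin and the midbody. A gene was included where an Affymetrix probe set carrying its symbol alone had deposited values. This held for 37 genes, with 60 of their probe sets, out of 9453 genes in all. CEP97, which caps centriole length, and CNTLN, a protein of the centriole linker, had 3 and 4 annotated probe sets but no values. CEP170, a protein of the subdistal appendages, was annotated only on probe sets with several symbols, which were not used. There were 3 arrays each of MTAP-positive cells given 10 µM of the MTAP inhibitor MT-DADMe-ImmA for 48 hours before harvest, of MTAP-positive cells labelled NT, and of MTAP-negative cells labelled NT. MTAP, methylthioadenosine phosphorylase, cleaves a by-product of polyamine synthesis. DMEM was the medium of every group. The labels do not say how the MTAP-positive cells were made, whether they are a clone, or whether a vehicle was given to the untreated cells.

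The centrosome is the main organiser of microtubules in animal cells and consists of a pair of centrioles within a protein matrix. A new centriole forms beside each old one once per cell cycle, when the kinase PLK4 and its partner STIL bring the cartwheel protein SASS6 to the wall of the parent centriole. At entry into mitosis the linker between the centrosomes is cut by the kinase NEK2, and the matrix gathers γ-tubulin ring complexes that nucleate spindle microtubules. The mRNAs of several of these proteins, among them PLK4, STIL, NEK2 and CEP55, are known to rise towards mitosis.

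MTAP mRNA matched the labels on every array. Its value was 11.21, 11.30 and 11.10 in inhibitor-treated cells, 11.63, 11.74 and 11.37 in MTAP-positive cells, and 4.41, 4.25 and 5.02 in MTAP-negative cells (log2). Of 8 mesenchymal markers, 7 had values, among them VIM with a mean of 13.98 and SPARC with 12.87 (log2, 9 arrays). None of the 10 markers of epithelial, blood, endothelial, liver, melanocyte or muscle cells had deposited values. Across genes, which are no independent replicates, pairs of arrays correlated at 0.964 to 0.989 inside a group and at 0.929 to 0.981 across groups. The ACTB control, whose 5' signal minus its 3' signal is a sign of RNA integrity, averaged -1.64 ± 0.66 with inhibitor, -1.43 ± 0.45 in MTAP-positive cells and, for MTAP-negative ones, -2.50 ± 0.90 (log2, SD, n = 3 each), with the lowest value, -3.52, in MTAP-negative replicate 3. For the centrosome genes 3 arrays stood apart. MTAP-positive replicate 1 was the lowest of its group for 21 of 37 members (56.8%, against 25.2% of all genes), and inhibitor-treated replicate 1 for 23 of 37 (62.2%, against 27.3% of all genes). MTAP-positive replicate 2 was the highest of its group for 19 of 37 members, against 25.4% of all genes. The ACTB difference of these arrays was -1.33, -1.93 and -1.03, and their part in the results was not tested beyond leaving them out. The 3 arrays of a group are biological replicates per the series' design text, and p-values measure the spread between them. In bulk RNA, fewer cells in a cell cycle stage and less RNA per cell cannot be told apart.

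**Figure D1:**
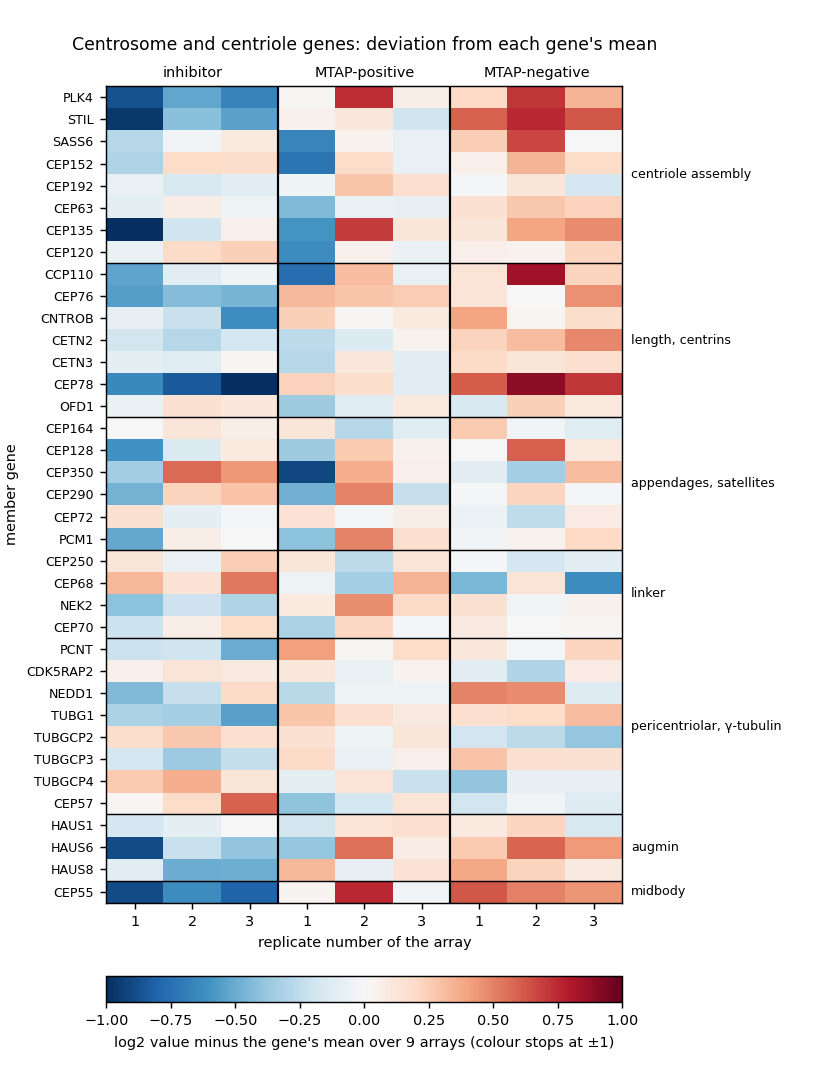
Values of the 37 centrosome and centriole genes on each array, as log2 value minus the gene's mean over the 9 arrays. Columns are arrays (inhibitor-treated, MTAP-positive, MTAP-negative cells, replicates 1 to 3 of each), and rows are genes grouped by role. PLK4, STIL, CEP78, CEP76, TUBG1 and CEP55 are below their mean on all 3 inhibitor arrays, and replicate 1 of the MTAP-positive group is low for CEP152, CEP120, CCP110 and CEP350.

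The comparison of inhibitor-treated with untreated MTAP-positive cells asked what 48 hours of inhibitor did to these genes. The midbody protein CEP55 was 2.03-fold lower with inhibitor, the kinase PLK4, which starts centriole duplication, 1.94-fold lower, and CEP78, a protein of mature centrioles, 1.92-fold lower. CEP76, which holds back re-duplication of centrioles, was 1.70-fold lower, STIL 1.54-fold, γ-tubulin TUBG1 1.49-fold, NEK2 1.47-fold, the scaffold PCNT 1.42-fold and the augmin subunit HAUS8 at least 1.37-fold. In all, 9 of 37 members passed the test as lower (24.3%) and 0 as higher (limma on all genes, Benjamini-Hochberg adjusted p below 0.05). Over all 9452 genes other than MTAP, 7.49% were called lower, 5.95% higher and 13.4% in either direction. The median log2 change of the members was -0.05, against -0.02 over all genes, so the 9 calls stood beside 28 members that did not pass. The arrays of the groups did not overlap for 12 members that were lower and 1 that was higher, where 19.1% and 15.6% of all genes were apart in these directions.

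CEP55, CEP76, CEP78 and TUBG1 passed the test in all alternatives that gave a value, and every one of the 9 members stayed below 0 on the log2 scale. Without inhibitor-treated replicate 1 or 3 the number of members called was 5 or 4 (13.5% or 10.8%, against 7.42% or 3.91% of all genes). PLK4 then had adjusted p = 0.0504 or 0.0572, NEK2 0.0547 or 0.0623, and STIL 0.0661 or 0.0636. STIL also missed the threshold without MTAP-positive replicate 1 (adjusted p = 0.0630) or 2 (0.0572). PCNT missed it without MTAP-negative replicate 1 (0.0501), without MTAP-positive replicate 1 (0.0998) or 3 (0.0611), without inhibitor-treated replicate 1 (0.0601), 2 (0.0585) or 3 (0.140), and with only the 2 groups fitted (0.0556). HAUS8, at adjusted p = 0.0482 in the fit reported, missed it in 12 of 19 alternatives, with adjusted p up to 0.183 without inhibitor-treated replicate 3, and the leave-one-out values for HAUS8 also missed it without MTAP-negative replicate 1 (0.0600), 2 (0.0653) or 3 (0.0539), MTAP-positive replicate 1 (0.145) or 3 (0.0970), or inhibitor-treated replicate 2 (0.150). With the replicate number as a block the 9 calls held and 4 members were added: HAUS6 (adjusted p = 0.0122), TUBGCP3 (0.0343) and CNTROB (0.0378) as lower and CEP57 (0.0427) as higher. The block moved the count over all genes from 1270 to 1919.

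**Figure D2:**
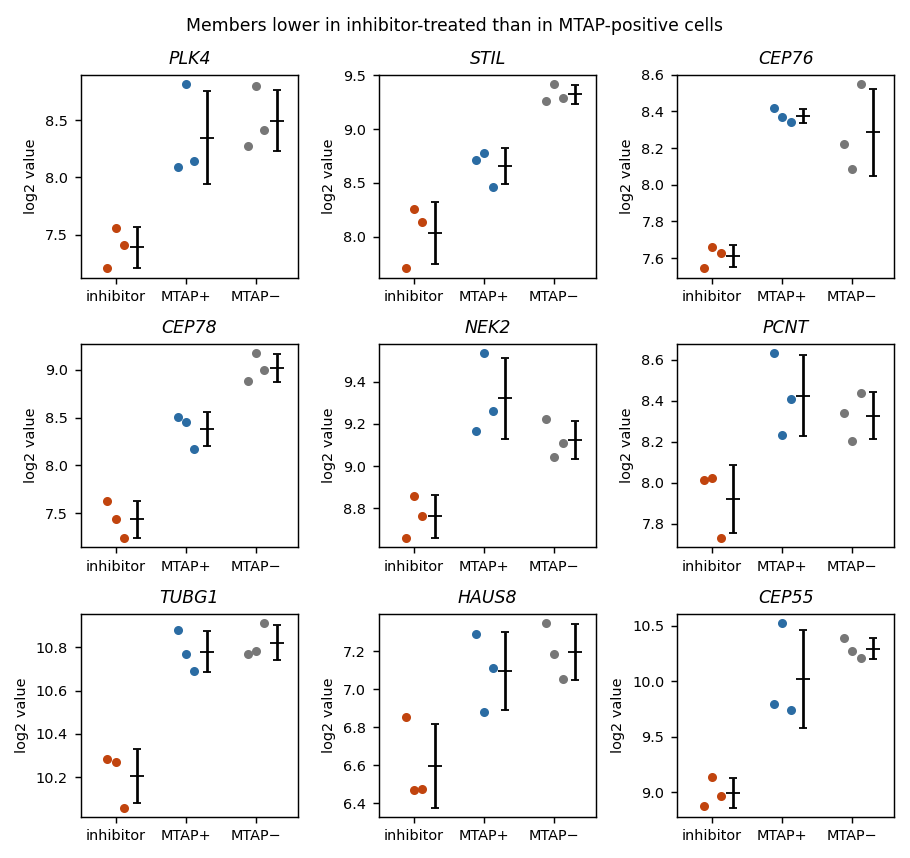
Log2 values of the 9 members that were lower in inhibitor-treated than in MTAP-positive cells. Points are arrays, and the bar beside them is the mean with its SD (n = 3); the vertical axes do not start at 0 and differ between panels. For each of the 9 genes all 3 inhibitor arrays lie below all 3 MTAP-positive arrays, and the MTAP-negative arrays of STIL and CEP78 lie above both other groups.

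The promoters of these genes are shown because the genes were lower in the same cells and the cell cycle factors known to act on such genes bind short motifs near the start. RefSeq windows of 300 bases, from 250 before to 50 after the start on GRCh38.p14, were found for 8 of the 9 (all but CEP78), taking the first start listed for each gene. The sequences were searched on both strands for core E2F motifs, spelled TTGGCGC in the first form searched, TTCCCGC in another, TTCGCGC in the third and TTGCCGC in the last. They were also searched for the cell cycle homology region CHR, spelled TTTGAA, and for the CCAAT box. No match overlapped another in the sequences printed. The 3 promoters with both an E2F core and a CHR are followed by those of STIL and PLK4, the genes that start centriole assembly. Each runs 5′ to 3′ on the strand of its gene, with matches in capitals, and a match on the other strand appears as its reverse complement, such as TTCAAA for the CHR.
CEP55: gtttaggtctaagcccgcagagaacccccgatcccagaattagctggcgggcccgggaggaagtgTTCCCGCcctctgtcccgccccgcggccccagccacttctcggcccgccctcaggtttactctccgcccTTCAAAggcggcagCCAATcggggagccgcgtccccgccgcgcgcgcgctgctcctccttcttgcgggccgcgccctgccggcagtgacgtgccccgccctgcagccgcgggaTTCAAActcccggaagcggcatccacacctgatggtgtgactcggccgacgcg
CEP76: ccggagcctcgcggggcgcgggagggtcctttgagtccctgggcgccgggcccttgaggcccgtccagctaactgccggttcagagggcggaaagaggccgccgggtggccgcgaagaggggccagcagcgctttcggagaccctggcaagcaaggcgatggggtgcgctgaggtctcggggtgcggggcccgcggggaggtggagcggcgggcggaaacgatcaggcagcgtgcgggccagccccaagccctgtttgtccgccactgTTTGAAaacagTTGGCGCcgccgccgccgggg
HAUS8: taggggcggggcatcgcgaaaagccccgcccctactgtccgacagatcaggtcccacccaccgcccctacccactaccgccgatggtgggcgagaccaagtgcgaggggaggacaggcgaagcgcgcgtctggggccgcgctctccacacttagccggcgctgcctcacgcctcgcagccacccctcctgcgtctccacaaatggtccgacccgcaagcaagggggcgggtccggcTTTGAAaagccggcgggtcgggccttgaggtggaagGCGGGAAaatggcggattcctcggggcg
STIL: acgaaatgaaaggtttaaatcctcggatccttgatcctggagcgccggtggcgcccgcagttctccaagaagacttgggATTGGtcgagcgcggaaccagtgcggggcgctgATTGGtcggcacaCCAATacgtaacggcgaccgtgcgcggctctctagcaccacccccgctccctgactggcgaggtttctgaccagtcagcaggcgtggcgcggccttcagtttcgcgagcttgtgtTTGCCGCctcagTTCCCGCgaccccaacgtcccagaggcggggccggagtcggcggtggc
PLK4: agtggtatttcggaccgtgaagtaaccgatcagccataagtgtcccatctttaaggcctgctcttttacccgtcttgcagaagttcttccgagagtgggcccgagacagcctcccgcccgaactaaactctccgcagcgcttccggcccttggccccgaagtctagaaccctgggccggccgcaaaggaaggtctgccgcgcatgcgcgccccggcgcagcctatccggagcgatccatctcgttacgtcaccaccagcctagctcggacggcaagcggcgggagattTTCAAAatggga

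The windows lie at chr10:93496362-93496661 on the plus strand for CEP55, chr18:12702728-12703027 on the minus strand for CEP76, chr19:17075403-17075702 on the minus strand for HAUS8, chr1:47314098-47314397 on the minus strand for STIL and chr4:127880643-127880942 on the plus strand for PLK4. CEP55 had an E2F core beginning at -185, CHR matches at -116 and -3 and a CCAAT box at -102, counted from the start. In CEP76 the CHR at 19 and the E2F core at 30 both lay behind the start, and in HAUS8 the CHR lay at -14 and the E2F core at 23. STIL had E2F cores at -10 and 3 and CCAAT boxes at -171, -138 and -125, with no CHR match. PLK4 had a CHR match at 39 only, in the first of 3 windows listed for that gene. An E2F core was found in 5 of the 8 promoters (62.5%), in 9 of 24 promoters of members not called (37.5%), in 21.6% of the promoters of genes tested and in 13.1% of all 27305 promoters. A CHR was found in 4 of the 8 (50%), in 7 of the 24 (29.2%), in 9.6% of the genes tested and in 15.4% of all. A CCAAT box was found in 5 of the 8 (62.5%), in 8 of the 24 (33.3%), in 37.3% of the genes tested and in 35.7% of all. Both an E2F core and a CHR were found in 3 of the 8 (37.5%), in 3 of the 24 (12.5%), in 1.87% of the genes tested and in 1.26% of all. Of the promoters not printed, that of TUBG1 had an E2F core, and those of NEK2 and PCNT had neither an E2F core nor a CHR. These are descriptions of letters in a window, given without a test.

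The comparison of MTAP-positive with MTAP-negative cells asked whether these genes differ with the enzyme. STIL was 1.59-fold lower and CEP78 1.56-fold lower in MTAP-positive cells, the centrin CETN2 1.37-fold lower and CEP63, which recruits CEP152 to the parent centriole, 1.33-fold lower. The γ-tubulin complex protein TUBGCP2 was 1.28-fold higher. These 5 of 37 members were the ones called (13.5%, 1 higher and 4 lower), against 18.5% of all genes. By direction, in the values as deposited, 2.7% of the members were higher, against 11.7% of all genes, and 10.8% lower, against 6.85%. The median log2 change of the members was -0.13, against 0.02 over all genes. Arrays of the groups did not overlap for 1 member that was higher and 5 that were lower, where 19.6% and 15.2% of all genes, 34.8% in all, were apart. PLK4 (log2 change -0.15 ± 0.20, adjusted p = 0.649), TUBG1 (-0.04 ± 0.11, 0.822) and NEK2 (0.20 ± 0.12, 0.274; all ± SE, limma) did not pass.

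CEP78 passed in all 21 alternatives of this comparison. STIL missed the threshold without MTAP-positive replicate 3 (adjusted p = 0.0510). CETN2 missed it without MTAP-positive replicate 1 (0.0609), without MTAP-negative replicate 3 (0.0722), in a fit of the 2 groups alone (0.0580) and under the ACTB covariate (0.186). CEP63 and TUBGCP2 missed it in 10 of 20 and 13 of 20 alternatives, with adjusted p up to 0.154 and 0.230. CEP63 did so without MTAP-negative replicate 1 (0.0587), 2 (0.0929) or 3 (0.0901), MTAP-positive replicate 1 (0.0998) or 3 (0.0529), or inhibitor-treated replicate 1 (0.0525) or 3 (0.0573). TUBGCP2 did so without MTAP-negative replicate 1 (0.05005), 2 (0.0694) or 3 (0.119), MTAP-positive replicate 1 (0.0988) or 3 (0.105), or inhibitor-treated replicate 1 (0.0571), 2 (0.0539) or 3 (0.0585). Centring the arrays on their medians left 0 members higher and 4 lower (10.8% lower, against 10.5% of all genes). A renewed quantile normalisation also gave 10.8% of the members lower, against 9.69% of all genes. With centring 45.4% of all genes called were higher, where the values as deposited gave 63%. With the replicate block 8 members were called (21.6%, against 25.9% of all genes), 1 higher and 7 lower (18.9% lower, against 9.96%). The added ones were CCP110 (adjusted p = 0.0234), SASS6 (0.0388) and CEP152 (0.0459). Leaving out 1 array at a time gave between 2 and 8 members called. There were 2 without MTAP-negative replicate 3 or MTAP-positive replicate 1 or 3. There were 3 without MTAP-negative replicate 1 or 2 or inhibitor-treated replicate 1 or 3, and 8 without MTAP-positive replicate 2. Over all genes the share called ran from 10.7% without MTAP-negative replicate 3 to 21.8% without MTAP-positive replicate 2.

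Inhibitor-treated MTAP-positive cells were also set against MTAP-negative cells. CEP78 was 2.99-fold lower with inhibitor, CEP55 2.46-fold, STIL 2.45-fold and PLK4 2.15-fold. The augmin subunit HAUS6 was 1.90-fold lower on its brightest probe set, and the linker protein CEP68 1.57-fold higher. Of 37 members 13 were lower (35.1%, against 16.2% of all genes) and 3 higher (8.11%, against 18.8%), and 35% of all genes were called in either direction. The median log2 change was -0.24 for the members and 0.00 for all genes. Arrays did not overlap for 4 members that were higher and 17 that were lower, where 26.9% and 25.8% of all genes, 52.7% in all, were apart. This comparison shares its arrays with the other comparisons, so its calls are not a separate observation of the same genes. PLK4, STIL, CEP76, CETN2, CEP78, TUBG1, HAUS8 and CEP55 passed in all alternatives that gave a value. A renewed quantile normalisation left 1 member higher and 13 lower. Among all genes called, 53.7% were higher in the values as deposited, 44.2% with arrays centred on their medians and 44.6% after the renewed normalisation.

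**Figure D3:**
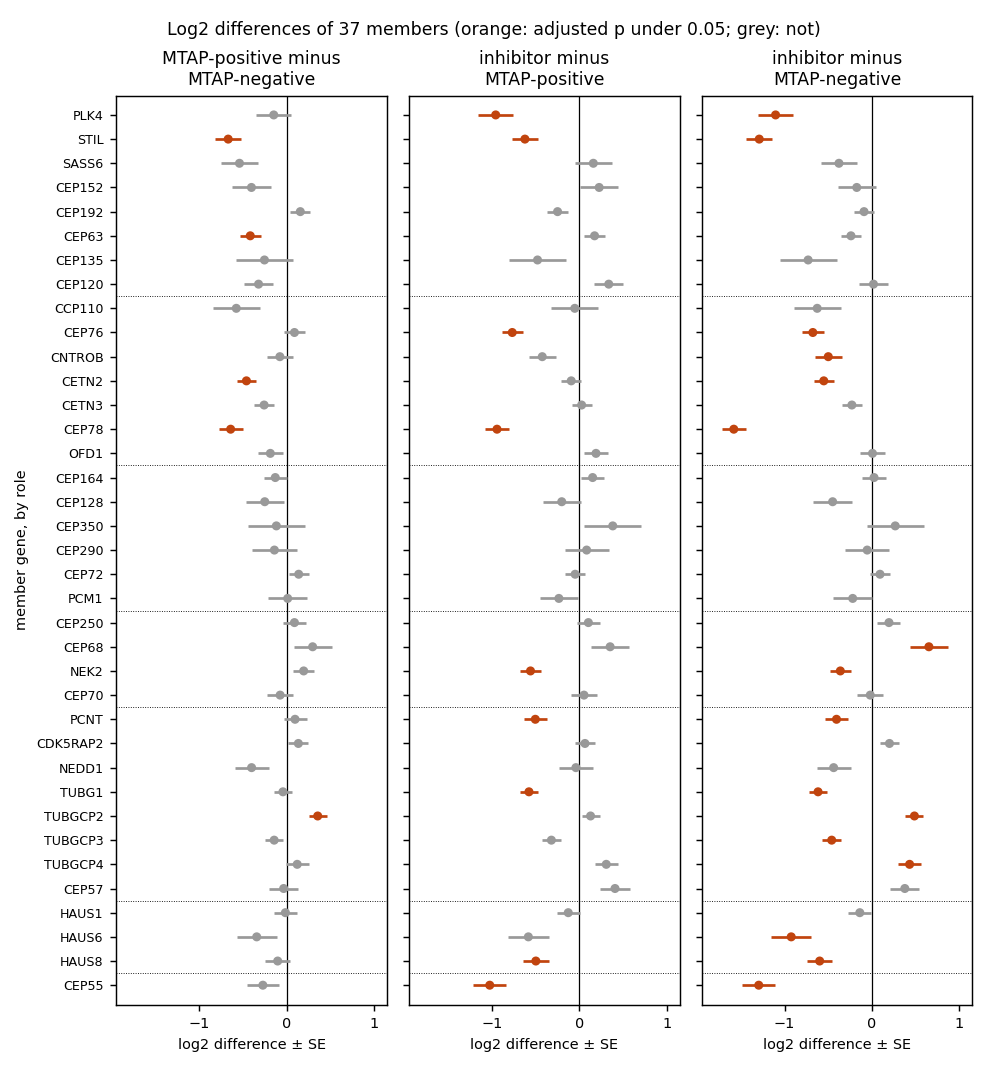
Log2 differences of the 37 members in the 3 comparisons, with points for the difference and bars for ± SE of the limma fit (3 arrays a group). Orange marks adjusted p below 0.05 and grey all others; dotted lines part the roles. CEP78 is orange in all 3 panels, at -0.64, -0.94 and -1.58, and the appendage and satellite genes are grey throughout.

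Among the 8 genes of centriole assembly, PLK4 and STIL were lower with inhibitor and the other 6 did not pass. PLK4, the kinase that sets the number of new centrioles, read 7.21, 7.56 and 7.41 in inhibitor-treated cells, 8.09, 8.82 and 8.14 in MTAP-positive cells, and 8.27, 8.79 and 8.42 in MTAP-negative cells (log2, replicates 1 to 3). All inhibitor arrays lay below all others, while the groups without inhibitor overlapped. The log2 change of PLK4 was -0.96 ± 0.20 against MTAP-positive cells (adjusted p = 0.0136, limma) and -1.10 ± 0.20 against MTAP-negative cells (0.00215). A dimmer PLK4 probe set had an inhibitor mean of 6.38, below the 6.64 that every deposited probe set reached on at least 3 arrays, so its fold is a bound counted from there. It was at least 1.30-fold lower than in MTAP-positive cells, which did not pass (adjusted p = 0.117), and at least 1.73-fold lower than in MTAP-negative cells (0.00842).

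STIL, the scaffold that PLK4 phosphorylates, read 7.71, 8.25 and 8.14 with inhibitor, 8.71, 8.78 and 8.47 in MTAP-positive cells and 9.26, 9.42 and 9.29 in MTAP-negative cells (log2). The 3 groups did not overlap, and the order was inhibitor-treated below MTAP-positive below MTAP-negative. STIL changed by -0.62 ± 0.15 with inhibitor (adjusted p = 0.0222), by -0.67 ± 0.15 in MTAP-positive against MTAP-negative cells (0.0125), and by -1.29 ± 0.15 in inhibitor-treated against MTAP-negative cells (1.65e-04). CEP63 read 8.43, 8.60 and 8.47 with inhibitor, 8.09, 8.46 and 8.44 in MTAP-positive cells and 8.68, 8.80 and 8.76 in MTAP-negative cells (log2). MTAP-positive and MTAP-negative arrays of CEP63 did not overlap (-0.42 ± 0.12, adjusted p = 0.0360), but its other probe set differed by -0.18 ± 0.18 (adjusted p = 0.528). The inhibitor changed CEP63 by 0.18 ± 0.12, which did not pass (adjusted p = 0.361).

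SASS6, which builds the cartwheel, read 6.78, 7.03 and 7.16 with inhibitor, 6.40, 7.10 and 6.98 in MTAP-positive cells, and 7.31, 7.73 and 7.07 in MTAP-negative cells (log2). Its change with inhibitor was 0.16 ± 0.21 (95% confidence interval -0.30 to 0.62, adjusted p = 0.658). CEP152, the receptor of PLK4 on the parent centriole, changed by 0.23 ± 0.22 with inhibitor (-0.26 to 0.71, adjusted p = 0.533). CEP120, which lengthens new centrioles, changed by 0.34 ± 0.17 (-0.03 to 0.71, 0.213) and CEP192, which recruits PLK4, by -0.25 ± 0.12 (-0.50 to 0.01, 0.186). The intervals of SASS6, CEP152 and CEP120 do not reach the change of -0.96 that PLK4 showed. The difference in response between these genes was not tested. CEP135, a cartwheel and centriole wall protein, had a mean under 6.64, the level that every deposited probe set reached on at least 3 arrays, in inhibitor-treated cells. The values of CEP135 ran from 5.71 to 6.81 with inhibitor, 6.17 to 7.46 in MTAP-positive and 6.88 to 7.23 in MTAP-negative cells (log2). CEP135 was not called in the 3 comparisons of the fit reported. Against MTAP-negative cells it was called lower with inhibitor under the replicate block (adjusted p = 0.0133, limma) or with only the 2 groups fitted.

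Of the 7 measured genes for centriole length, re-duplication and centrins, CEP78 and CEP76 were lower with inhibitor than in MTAP-positive cells. CEP78 read 7.63, 7.44 and 7.24 with inhibitor, 8.50, 8.45 and 8.17 in MTAP-positive cells and 8.88, 9.17 and 8.99 in MTAP-negative cells (log2). As for STIL, the 3 groups did not overlap and had the same order. The change of CEP78 was -0.94 ± 0.14 with inhibitor (adjusted p = 0.00281), -0.64 ± 0.14 in MTAP-positive against MTAP-negative cells (0.0102) and -1.58 ± 0.14 in inhibitor-treated against MTAP-negative cells (3.60e-05). The second CEP78 probe set had an inhibitor mean of 6.48, also below 6.64, and was at least 1.53-fold lower with inhibitor than in MTAP-positive cells (adjusted p = 0.0120). This CEP78 probe set differed by -0.37 ± 0.15 in MTAP-positive against MTAP-negative cells, which did not pass (0.111), and was at least 1.99-fold lower with inhibitor than in MTAP-negative cells (5.19e-04).

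CEP76 read 7.54, 7.66 and 7.63 with inhibitor, 8.42, 8.37 and 8.34 in MTAP-positive cells and 8.22, 8.09 and 8.55 in MTAP-negative cells (log2). Only the inhibitor arrays stood apart, by -0.77 ± 0.12 against MTAP-positive cells (adjusted p = 0.00439) and -0.68 ± 0.12 against MTAP-negative cells (0.00200), and its second probe set passed in both of these comparisons (0.0116 and 0.00302). CETN2, a calcium-binding centrin of the centriole lumen that also serves in DNA repair, read 8.80, 8.70 and 8.81 with inhibitor, 8.72, 8.84 and 9.02 in MTAP-positive cells and 9.20, 9.29 and 9.46 in MTAP-negative cells (log2). Both MTAP-positive groups overlapped and lay below the MTAP-negative arrays, by -0.46 ± 0.11 without inhibitor (adjusted p = 0.0197) and -0.55 ± 0.11 with it (0.00388), and the inhibitor itself changed CETN2 by -0.09 ± 0.11 (-0.34 to 0.16, adjusted p = 0.637). The other centrin, CETN3, changed by 0.03 ± 0.11 with inhibitor (-0.23 to 0.28, 0.905) and differed by -0.26 ± 0.11 in MTAP-positive against MTAP-negative cells, which did not pass (0.141). That CETN3 difference passed with array weights or without MTAP-positive replicate 2.

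CNTROB, a protein of daughter centrioles, read 7.99, 7.85 and 7.45 with inhibitor, 8.31, 8.09 and 8.17 in MTAP-positive cells and 8.46, 8.09 and 8.25 in MTAP-negative cells (log2). Its inhibitor arrays lay below all others. CNTROB was called against MTAP-negative cells (-0.50 ± 0.15, adjusted p = 0.0273), though not without MTAP-negative replicate 1 (0.0975) or 3 (0.0580) or inhibitor-treated replicate 3 (0.109). Against MTAP-positive cells CNTROB changed by -0.42 ± 0.15 and did not pass (0.0946), but passed with the replicate block (0.0378) or with array weights. CCP110, which caps growing centrioles, read 7.92, 8.33 and 8.40 with inhibitor, 7.68, 8.75 and 8.37 in MTAP-positive cells and 8.58, 9.28 and 8.67 in MTAP-negative cells (log2). In the fit reported CCP110 was not called. It changed by -0.05 ± 0.27 with inhibitor (adjusted p = 0.924, limma) and by -0.58 ± 0.27 in MTAP-positive against MTAP-negative cells (0.157). In inhibitor-treated against MTAP-negative cells it changed by -0.63 ± 0.27 (0.0930). CCP110 was called lower in MTAP-positive than in MTAP-negative cells with the replicate block (0.0234) or without MTAP-positive replicate 2. Against MTAP-negative cells it was called lower with inhibitor under the block (0.00947), with only the 2 groups fitted or without MTAP-positive replicate 1. OFD1, which controls centriole length and cilium formation, changed by 0.19 ± 0.14 with inhibitor (0.407).

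None of the 6 measured genes of appendages, cilium and satellites passed the test in any of the 3 comparisons without the replicate block. With the block CEP128 was called lower with inhibitor than in MTAP-negative cells (-0.45, adjusted p = 0.0266, limma). PCM1, the scaffold of the satellites around the centrosome, had means of 9.22 ± 0.32 with inhibitor, 9.46 ± 0.46 in MTAP-positive cells and, for MTAP-negative ones, 9.44 ± 0.12 (log2, SD, n = 3 each). CEP164, which docks the cilium to the membrane, changed by 0.15 ± 0.13 with inhibitor (-0.14 to 0.45, adjusted p = 0.490). CEP350, a large protein that anchors microtubules, read 7.82, 8.74 and 8.61 with inhibitor, 7.26, 8.54 and 8.22 in MTAP-positive cells and 8.06, 7.83 and 8.48 in MTAP-negative cells (log2). Replicate 1 was the lowest of both MTAP-positive groups, and the interval of the CEP350 change with inhibitor, -0.34 to 1.11, was the widest of the 37 members. CEP290, a protein of the ciliary transition zone, CEP72, a satellite protein that binds PCM1, and CEP128, a protein of the subdistal appendages, changed by 0.08 ± 0.25, -0.05 ± 0.12 and -0.20 ± 0.22 with inhibitor.

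Of the 4 measured linker genes, NEK2 and CEP68 were called and moved in opposite directions. NEK2, the kinase that cuts the linker before mitosis, read 8.66, 8.86 and 8.77 with inhibitor, 9.17, 9.53 and 9.26 in MTAP-positive cells and 9.22, 9.04 and 9.11 in MTAP-negative cells (log2). The inhibitor arrays lay below all others, by -0.56 ± 0.12 against MTAP-positive cells (adjusted p = 0.0140) and -0.36 ± 0.12 against MTAP-negative cells (0.0367). The call against MTAP-negative cells was lost for NEK2 without MTAP-negative replicate 1 (0.113) or 3 (0.0737) or inhibitor-treated replicate 1 (0.124), 2 (0.0518) or 3 (0.0920). CEP68, a fibre protein of the linker, read 7.93, 7.74 and 8.13 with inhibitor, 7.55, 7.25 and 7.94 in MTAP-positive cells and 7.14, 7.73 and 6.96 in MTAP-negative cells (log2). The inhibitor arrays of CEP68 lay just above the MTAP-negative ones and overlapped the MTAP-positive ones. It was higher with inhibitor than in MTAP-negative cells by 0.65 ± 0.22 (adjusted p = 0.0386), and its second probe set, whose MTAP-negative mean of 6.17 lay below 6.64, was at least 1.39-fold higher (0.00116). For the brighter CEP68 probe set this call was lost without MTAP-negative replicate 1 (0.109) or 3 (0.131) or inhibitor-treated replicate 1 (0.0846) or 3 (0.132), with a renewed quantile normalisation (0.0503), and with the ACTB covariate (0.0779). The second CEP68 probe set was also called higher in MTAP-positive than in MTAP-negative cells, by at least 1.06-fold (0.0276), where the brighter one was not called (0.30 ± 0.22, 0.364). With array weights the brighter one was called higher there too. CEP250, the anchor of the linker on the centriole, and CEP70 changed by 0.10 ± 0.13 and 0.05 ± 0.15 with inhibitor and did not pass.

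In the pericentriolar material, PCNT and TUBG1 were lower with inhibitor. TUBG1, γ-tubulin, from which new microtubules grow, read 10.29, 10.27 and 10.06 with inhibitor, 10.88, 10.77 and 10.69 in MTAP-positive cells and 10.77, 10.78 and 10.91 in MTAP-negative cells (log2). The inhibitor arrays lay below all 6 others, and those 6 overlapped. The change of TUBG1 was -0.58 ± 0.11 against MTAP-positive cells (adjusted p = 0.00758) and -0.62 ± 0.11 against MTAP-negative cells (0.00146). TUBG1 has a close paralogue, TUBG2, and binding of its transcript to this probe set was not tested. PCNT, pericentrin, read 8.01, 8.02 and 7.73 with inhibitor, 8.63, 8.24 and 8.41 in MTAP-positive cells and 8.34, 8.21 and 8.44 in MTAP-negative cells (log2). All inhibitor arrays of PCNT lay below all others, by -0.50 ± 0.13 against MTAP-positive cells (adjusted p = 0.0325) and -0.41 ± 0.13 against MTAP-negative cells (0.0353). The PCNT call against MTAP-negative cells was lost without MTAP-negative replicate 1 (0.0817) or 3 (0.108) or inhibitor-treated replicate 1 (0.0554), 2 (0.0516) or 3 (0.141), and with the ACTB covariate (0.109).

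The brightest probe sets of TUBGCP2, TUBGCP3 and TUBGCP4 were not called between inhibitor-treated and MTAP-positive cells in the fit reported. With array weights that of TUBGCP4 was called higher with inhibitor and that of TUBGCP3 lower. TUBGCP2, a core subunit of the complex, read 10.10, 10.19 and 10.08 with inhibitor, 10.07, 9.87 and 10.04 in MTAP-positive cells and 9.72, 9.66 and 9.53 in MTAP-negative cells (log2). Both MTAP-positive groups lay above the MTAP-negative arrays, by 0.49 ± 0.10 with inhibitor (adjusted p = 0.00448) and 0.36 ± 0.10 without it (0.0365). The second TUBGCP2 probe set was called in neither comparison (0.49 ± 0.32, adjusted p = 0.271, and 0.46 ± 0.32, 0.358), and with the mean of both probe sets the call with inhibitor was lost (0.0518), as was the one without it (0.127). TUBGCP4, a subunit of the full ring, was higher with inhibitor than in MTAP-negative cells by 0.43 ± 0.13 (adjusted p = 0.0273), while its other probe set differed by 0.17 ± 0.12 (0.286). The chosen TUBGCP4 probe set read 8.48, 8.58 and 8.34 with inhibitor, 8.12, 8.36 and 7.996 in MTAP-positive cells and 7.83, 8.14 and 8.14 in MTAP-negative cells (log2), so that only the MTAP-positive arrays overlapped both others. The TUBGCP4 call was lost with arrays centred on their medians (0.0591), with a renewed quantile normalisation (0.0602), with the ACTB covariate (0.0942), and without MTAP-negative replicate 1 (0.1004) or inhibitor-treated replicate 1 (0.0724) or 2 (0.0964). The scaffold CDK5RAP2, which binds γ-tubulin complexes, changed by 0.07 ± 0.11 with inhibitor (-0.19 to 0.32, adjusted p = 0.755). NEDD1, which brings those complexes to the centrosome, and CEP57, which holds the inner matrix, changed by -0.04 ± 0.19 (0.923) and 0.41 ± 0.17 (0.135), and CEP57 passed with the replicate block (0.0427).

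For TUBGCP3, the partner of TUBGCP2 in the core complex, and for HAUS6 the deposited probe sets did not give the same answer. The brighter TUBGCP3 probe set read 8.78, 8.59 and 8.72 with inhibitor, 9.15, 8.89 and 9.01 in MTAP-positive cells and 9.24, 9.12 and 9.11 in MTAP-negative cells (log2). The inhibitor arrays lay below all others for this TUBGCP3 probe set, with a change of -0.46 ± 0.11 against MTAP-negative cells (adjusted p = 0.00702). The dimmer TUBGCP3 probe set read 7.76, 7.57 and 7.64 with inhibitor, against 7.39, 7.27 and 7.18 in MTAP-negative cells, a change of 0.37 ± 0.13 in the other direction (0.0487). Against MTAP-positive cells this dimmer TUBGCP3 probe set was called higher with inhibitor (0.46 ± 0.13, adjusted p = 0.0476). The brighter one changed by -0.32 ± 0.11, which did not pass in the fit reported (0.0722). It passed as lower with the replicate block (0.0343) or with array weights. With the mean of its probe sets TUBGCP3 was not called (0.775). Of 69 checks of a second or further probe set against the chosen one, over 16 genes and 3 comparisons, this was the 1 pair called in opposite directions, 10 differed in whether they passed and 58 had the same call.

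**Figure D4:**
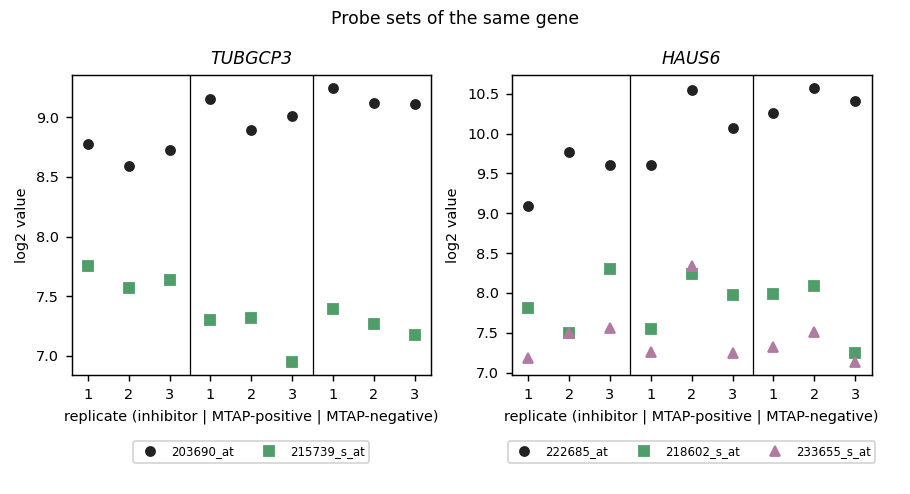
Log2 values of the deposited probe sets of TUBGCP3 and HAUS6 on each array, with inhibitor-treated, MTAP-positive and MTAP-negative cells from left to right. Each symbol is a probe set. The upper TUBGCP3 points are lowest with inhibitor and the lower ones highest with inhibitor, and the fall of HAUS6 appears on the brightest of its 3 probe sets only.

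Augmin, which attaches γ-tubulin complexes to spindle microtubules, was measured by 3 of its subunits. HAUS6 read 9.10, 9.77 and 9.60 with inhibitor, 9.60, 10.54 and 10.07 in MTAP-positive cells and 10.25, 10.57 and 10.41 in MTAP-negative cells on the brightest probe set (log2). The inhibitor arrays lay below the MTAP-negative ones and overlapped the MTAP-positive ones. The change of HAUS6 against MTAP-negative cells was -0.92 ± 0.23 (adjusted p = 0.0110), and that against MTAP-positive cells, -0.58 ± 0.23, did not pass (0.124). The other HAUS6 probe sets differed by 0.10 ± 0.27 and 0.09 ± 0.27 in inhibitor-treated against MTAP-negative cells (adjusted p = 0.814 and 0.825), and their mean with the brightest was not called (0.399). HAUS8, the subunit that binds microtubules, read 6.85, 6.47 and 6.47 with inhibitor, 7.29, 6.88 and 7.11 in MTAP-positive cells and 7.35, 7.18 and 7.05 in MTAP-negative cells (log2). The inhibitor arrays lay below all others, by differences between array values of -0.50 ± 0.15 (adjusted p = 0.0482) and -0.60 ± 0.15 (0.00989). The inhibitor mean of HAUS8 lay below 6.64, the level every deposited probe set reached on at least 3 arrays, so its folds are counted from there, as at least 1.37 and at least 1.47. HAUS1 changed by -0.13 ± 0.13 with inhibitor (adjusted p = 0.574).

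CEP55, which carries the machinery of the final cut to the midbody between dividing cells, read 8.88, 9.14 and 8.97 with inhibitor, 9.80, 10.53 and 9.74 in MTAP-positive cells and 10.40, 10.28 and 10.21 in MTAP-negative cells (log2). All inhibitor arrays lay below all others. The change of CEP55 was -1.02 ± 0.19 against MTAP-positive cells (adjusted p = 0.00747) and -1.30 ± 0.19 against MTAP-negative cells (5.65e-04). MTAP-positive replicate 2 was the highest of its group by a wide margin for CEP55 and for PLK4. In the fit reported the CEP55 difference between MTAP-positive and MTAP-negative cells was -0.27 ± 0.19 and did not pass (adjusted p = 0.337). Without MTAP-positive replicate 2 it was -0.52 and passed (0.0121), and it also passed with array weights on all arrays.

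Genes outside the set gave the setting for these values. Of 75 other centrosome genes 56 had values. With inhibitor 12 of them were lower than in MTAP-positive cells (21.4%, against 7.49% of all genes) and 2 higher (3.57%, against 5.95%). Their median log2 change was -0.13. CEP43, a protein of centriole and satellites, fell by 0.79 on the log2 scale and TACC3, a spindle protein at γ-tubulin sites, by 0.78, while POC1B, a centriole wall protein, rose by 0.76 and ε-tubulin TUBE1 by 0.75 (log2; adjusted p = 0.00312, 0.00484, 0.0126 and 0.00978). Between MTAP-positive and MTAP-negative cells 5 of the 56 were higher (8.93%, against 11.7% of all genes) and 7 lower (12.5%, against 6.85%). With inhibitor, set against MTAP-negative cells, 4 were higher (7.14%, against 18.8%) and 19 lower (33.9%, against 16.2%).

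Of 22 genes known for mitosis, 14 were lower with inhibitor than in MTAP-positive cells (63.6%, against 7.49% of all genes) and 0 higher (against 5.95%). The median log2 change of the 22 was -0.68. The 14 lower ones included the midbody kinesins KIF23 (-1.09 ± 0.20, adjusted p = 0.00758) and KIF20A (-0.95 ± 0.12, 0.00164) and the cyclin CCNB1 (-0.84 ± 0.15, 0.00605). Between MTAP-positive and MTAP-negative cells 0 of the 22 were higher (against 11.7% of all genes) and 1, CDC20, was lower (4.55%, against 6.85%). The per-array median of these 22 genes, each relative to its own mean, was -0.51, -0.33 and -0.50 with inhibitor, 0.04, 0.47 and 0.01 in MTAP-positive cells and 0.25, 0.31 and 0.30 in MTAP-negative cells (log2). MTAP-positive replicate 2 was thus the highest array for these genes, as it was for CEP55 and PLK4. What part of the changes in the centrosome genes moves with this mitotic level was not tested.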

How the data were processed

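RNA of 9 cultures was measured on Affymetrix expression arrays, 3 in each of 3 groups taken from the labels. The deposited values are log2 probe set values made with RMA, per the submitters' processing notes, which name neither its version nor its settings. Of 54675 probe sets 17474 had deposited values, each at or above 6.64 (log2) on at least 3 arrays, so low or absent transcripts are missing. Probe sets of 1 symbol other than controls were kept (15485), and the one with the highest mean over all arrays stood for each of 9453 genes. All 3 groups were fitted together with limma 3.58.1 in R 4.3.3, with p-values adjusted over all genes by Benjamini-Hochberg and a threshold of 0.05. Further probe sets of a gene were tested in a fit of all probe sets. MTAP was left out of background counts. The number of arrays limits the precision. The fit was also run on simulated data with independent noise on each array. That check does not cover a correlation between same-numbered arrays, or changes smaller than those put in.

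Members, lists and tests were chosen with earlier results of these data known. All called members are given by array, and of the rest up to 3 of the highest mean in each role list or those called with the replicate block. CEP290 and CEP72 are given beyond this rule. Of other lists up to 4 called genes of largest change were named. The replicate numbers come from the labels. Deviations from the group means of arrays with the same number correlated at 0.35, 0.23 and 0.13 between MTAP-positive and MTAP-negative cells and at 0.72, 0.56 and 0.30 between inhibitor-treated and MTAP-positive cells, over 0.1 in each pair, so blocked values stand beside those comparisons. Alternatives changed the filter, probe set choice, normalisation, samples fitted, covariate, weights, variance prior and arrays. RefSeq promoters were matched by symbol for 35 of 40 members, 32 of them with values.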

Additional observations from a re-analysis of the deposited data

How the results depend on the processing

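There were 21 alternatives, of which 9 left out 1 array each, and 18 to 21 of them gave a value for each member. No called member changed sign in them. Among all genes called, centring turned the balance to 829 higher and 996 lower between MTAP-positive and MTAP-negative cells (1103 and 647 as deposited) and to 1510 higher and 1910 lower between inhibitor-treated and MTAP-negative cells (1776 and 1530 as deposited), and renewed quantile normalisation gave 814 and 916, and 1521 and 1887. For MTAP-positive against MTAP-negative cells 5 members were called; there were 3 with the mean of a gene's probe sets, 2 with only the 2 groups fitted, 2 with the ACTB covariate, 8 with array weights, 8 with the replicate block, and 2 to 8 when 1 array was left out. For inhibitor-treated against MTAP-positive cells 9 of 37 were called (24.3%, against 13.4% of all genes). When 1 array was left out 4 to 8 were called, against 3.91% to 13.3% of all genes. A filter at the 60th percentile, where fewer genes were tested, kept 15 members, of which 5 were called (33.3%, against 15.5% of all genes). For inhibitor-treated against MTAP-negative cells 16 of 37 were called (43.2%, against 35% of all genes), and 11 to 17 when 1 array was left out. With that filter 9 of 15 members were called (60%, against 38.2% of all genes). Between these groups same-numbered arrays correlated at 0.29, 0.03 and 0.02, above 0.1 in 1 pair, which does not settle whether the numbers pair them. In this comparison the replicate block added CEP135, CCP110, CEP128 and CEP57. The block also raised the share of all genes called, from 18.5% to 25.9% between MTAP-positive and MTAP-negative cells. Between inhibitor-treated and MTAP-positive cells it raised that share from 13.4% to 20.3%. In no comparison did the block lose a call. Apart from the effect of testing fewer genes or samples, the cause of these shifts was not tested.

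Over all genes, the 1750 calls between MTAP-positive and MTAP-negative cells (18.5%) became 1004 with 2 groups fitted and 662 with the ACTB covariate. They became 2452 with the replicate block (25.9%) and 2554 with array weights (27%). Without MTAP-negative replicate 2 or 3 or MTAP-positive replicate 3 they became 1156, 1014 or 1040. With the filter 977 of 5055 genes were called (19.3%). The 1270 between inhibitor-treated and MTAP-positive cells (13.4%) became 1919 with the replicate block, 2057 with array weights and 749 without MTAP-positive replicate 1. They became 701, 701 or 370 without inhibitor-treated replicate 1, 2 or 3, and 785 of 5055 genes with the filter (15.5%). The 3306 between inhibitor-treated and MTAP-negative cells (35%) became 1929 of 5055 genes with the filter (38.2%). Centring or renewed quantile normalisation moved the median of all genes by at most -0.08 (log2). Signal under 6.64 in a group limits HAUS8, CEP135 and the second probe sets of PLK4, CEP78 and CEP68.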
